A study of Homo sapiens with 6 samples.

Results

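The cadherin and tight junction genes CDH1, CDH3, CLDN1, CLDN3, CLDN4, CLDN7, OCLN, TJP1 and F11R build the contacts that hold an epithelial sheet together. They were taken by name, 9 of the 19111 autosomal protein-coding genes with a GENCODE model, and for each the ATAC-seq peaks overlapping its gene body or the 20 kb on either side were collected. These windows held 110 of the 89416 peaks of PIK3CA E545K cells, 117 of the 106747 peaks of PIK3CA H1047R cells and 99 of the 98910 peaks of cells with wild-type PIK3CA (WT). ATAC-seq marks open chromatin by letting the transposase Tn5 insert adapters where DNA is accessible, and a peak is a stretch where the insertions pile up.

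All cells were MCF-10A, a non-tumorigenic human breast epithelial line. The E545K line carries a knock-in in the helical domain of the catalytic subunit of PI3-kinase, the H1047R line a knock-in in its kinase domain, and WT is the parental line. Each genotype had 2 samples, 6 in all, and both samples of a genotype share 1 pooled peak list. There are therefore no values per sample, sequencing depth is unknown, and every difference below sets 1 list beside another with no replicate check and no test. The knock-in lines were maintained without EGF and the parental line with 20 ng/ml EGF. All then spent 24 h in the same assay medium, which held 1% stripped serum and EGF at 0.2 ng/ml. Cholera toxin at 100 ng/ml, hydrocortisone at 0.5 µg/ml and insulin at 10 µg/ml were present throughout in all lines. Genotype and maintenance medium cannot be told apart. No label states whether a knock-in line is 1 clone.

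Cadherins are calcium-dependent adhesion proteins whose extracellular repeats bind cadherins of the neighbouring cell and whose tails bind catenins and, through them, actin. Above these adherens junctions, claudins and occludin span the membrane as the strands of the tight junction, the barrier that closes the space between cells, and scaffold proteins tie the strands to the cytoskeleton. In breast epithelium CDH1 (E-cadherin) is the cadherin shared by the epithelial layers, CDH3 (P-cadherin) is typical of basal and myoepithelial cells, and loss of E-cadherin is a hallmark of lobular carcinoma.

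The lists themselves differed in shape. Peaks had a median width of 539 bp in E545K, 466 bp in H1047R and 466 bp in WT, and the median of the authors' -log10 p at the summit was 3.97 in E545K, 4.14 in H1047R and 4.25 in WT. Together 69.7 Mb lay under peaks in E545K, 72.4 Mb in H1047R and 67.4 Mb in WT. The area of a peak and its -log10 p are the authors' own values for each peak, and they describe or rank peaks within a list only. Marker promoters mostly matched the breast epithelial label. Of 11 epithelial marker genes 10, among them KRT5, KRT14, KRT8 and EPCAM, had a promoter peak in all 3 lists, against 65.5% of all genes. The exception was TP63, with none in any list. COL1A1 and COL1A2, 2 of 7 fibroblast markers, CD14, 1 of 6 immune markers, and KDR, 1 of 5 endothelial markers, also had one in all 3 lists. Of the 4 neural markers with an autosomal gene model, 0 did. The fibroblast marker PDGFRA, the immune marker SPI1, the endothelial marker CDH5 and the neural marker SNAP25 had one in some lists only.

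Most of these junction genes had an open promoter in every genotype, and 7 of the 9 had more bases under peaks in both knock-ins than in WT; the exceptions were CLDN3 and TJP1. The share of all genes with more bases in both knock-ins was not counted. Over all genes the median ratio of bases under peaks was 0.976 for E545K over WT and 1.05 for H1047R over WT. A promoter peak, one that reaches within 1 kb of the canonical transcript start, was present in all 3 lists for 8 of the 9 genes, and 65.5% of all genes had one. CLDN3 was the exception, with a promoter peak in H1047R only. When touching peaks of the 3 lists were merged, the windows held 130 regions, and 84 of them (64.6%, Wilson 95% interval 56.1 to 72.3% for counting error only) had a peak in every list. That share is near the 62.8% of regions in the windows of all genes.

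The other regions were split unevenly. A peak in E545K only was found in 12 regions (9.23%, against 4.56% over all gene windows), in H1047R only in 15 (11.5%, against 10.5%) and in WT only in 2 (1.54%, against 6.19%). A further 9 regions had E545K and H1047R peaks but no WT peak (6.92%, against 4.30%). Conversely, 6 regions had a peak in H1047R and WT without one in E545K (4.62%, against 9.59%), and 2 in E545K and WT without one in H1047R (1.54%, against 2.03%). Peaks missing from WT thus made up more of the regions at these genes than over all gene windows, with the H1047R-only share near the background. Peaks of WT alone made up fewer, and both WT-only regions lay in the TJP1 window. The E545K-only excess came mainly from the overlapping CDH1 and CDH3 windows, which held 8 of the 12 regions. These were 18.2% of the 44 regions there, against 5.71% at the claudins and 3.92% at OCLN, TJP1 and F11R.

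Covered length, the number of bases under peaks in a window, was then compared gene by gene. It was longer in E545K than in WT by at least 1.5 times, with at least 1000 bp in the longer list, for 6 of the 9 genes, where 6.23% of all genes met this rule. The 6 were CDH1, CDH3, CLDN1, CLDN4, CLDN7 and OCLN. The windows of CDH1 and CDH3 overlap, so peaks around the CDH1 start count in both calls and the 6 are not all separate. With gene bodies alone, CDH3 was no longer called for E545K over WT. In H1047R the rule was met over WT for 2 of the 9, CDH3 and OCLN, against 5.24% of all genes. In the opposite direction 0 of 9 genes were longer in WT than in E545K (4.59% of all genes) and 0 of 9 longer in WT than in H1047R (2.35%). Between the knock-ins, 0 of 9 were longer in E545K than in H1047R (5.70%) and 0 of 9 longer in H1047R than in E545K (7.23%).

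**Figure D1:**
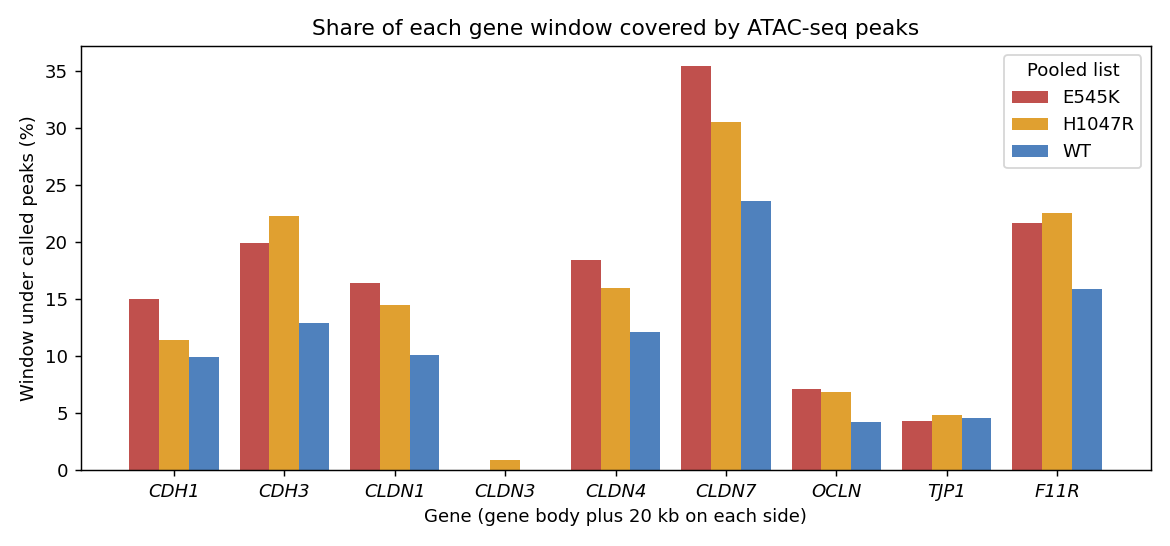
Share of each gene window (gene body plus 20 kb on each side) that lies under called peaks, in percent, with 1 bar per pooled list and no error bar because the lists hold no values per sample. The WT bar is the lowest of the 3 for every gene except TJP1, where 4.36% in E545K, 4.81% in H1047R and 4.56% in WT lie close together, and CLDN3, which has a peak in H1047R only.

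Over the 8 genes with peaks in each list, the median ratio of covered length was 1.51 for E545K over WT, where the median over all genes was 0.976, and 1.37 for H1047R over WT, where it was 1.05. For E545K over H1047R it was 1.08 (0.920 over all genes). The threshold of 1.5 falls among these genes. CDH1 (1.501), CLDN7 (1.503), CLDN4 (1.51) and CDH3 (1.54) lay just above it for E545K over WT, and F11R (1.37) just below. The count of 6 was 2 with a threshold of 1.6 (4.77% of all genes) and 3 with gene bodies alone (6.11%). With 50 kb on each side it was 1 (5.6%). It was 3 among peaks with an area of at least 400 (5.52%). Among peaks with a summit -log10 p of at least 3 it was 2 (3.3%). The median ratio moved less over these peak and window choices, at 1.33 to 1.42 for E545K over WT and 1.29 to 1.33 for H1047R over WT.

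**Figure D2:**
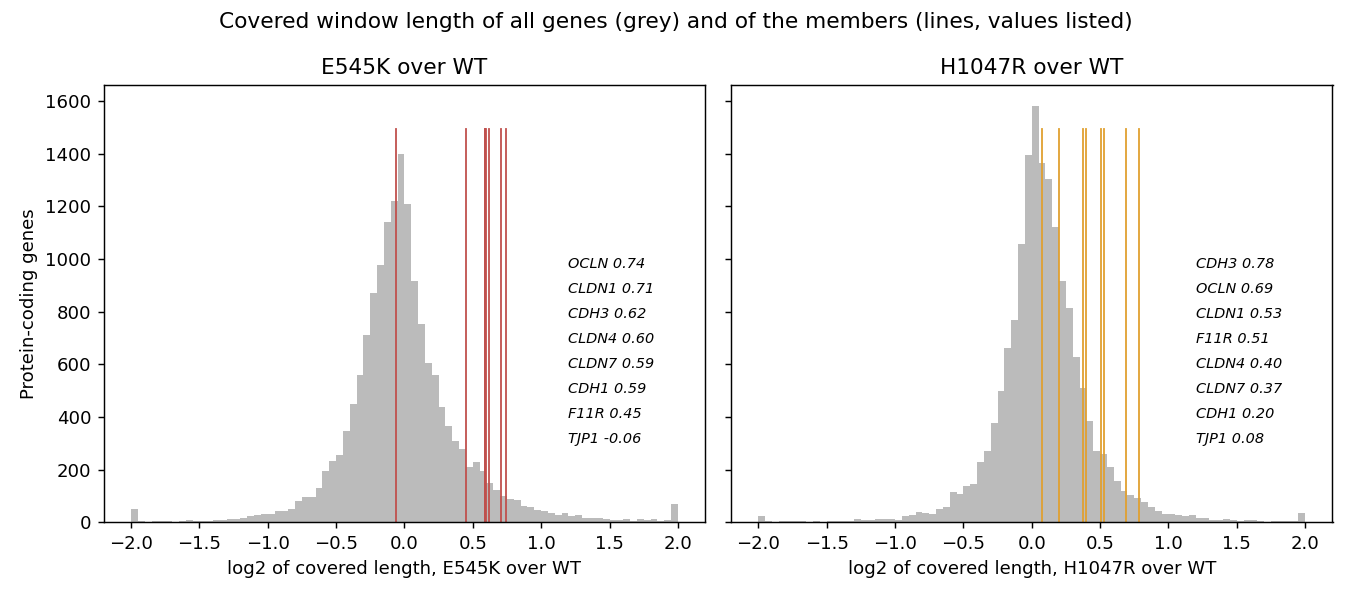
Histograms of the log2 ratio of covered window length over WT for all protein-coding genes with peaks in both lists (grey, values beyond ±2 drawn in the end bins), with the junction genes as coloured lines and their values listed; E545K over WT on the left and H1047R over WT on the right. On the left 7 of the 8 lines lie to the right of the bulk of genes, from 0.45 for F11R to 0.74 for OCLN, and TJP1 lies at -0.06; on the right the lines run from 0.08 for TJP1 to 0.78 for CDH3.

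More covered length came both from extra peaks and from wider ones. In the 84 shared regions, E545K had more bases under peaks than WT in 56 and fewer in 28, so 66.7% were wider (Wilson 95% interval 56.1 to 75.8%), against 47.0% over all gene windows. H1047R had more bases than WT in 56 and fewer in 26, and 2 were equal. Here too 66.7% were wider (Wilson 95% interval 56.1 to 75.8%), but this interval includes the 56.9% over all gene windows. Of the 23 E545K peaks at these genes without an overlapping WT peak, 20 had a summit -log10 p under 3, and their median was 637 bp wide with a summit of 2.57. Over the whole list, E545K peaks without a WT partner had a median of 417 bp and 2.83, and 7114 of these 11252 had a summit under 3. The E545K peaks at these genes that did have a WT partner had a median of 738 bp and 5.02. The unpartnered ones were thus lower and somewhat narrower than their partnered neighbours, and wider than unpartnered peaks of the list. The part that the shape of the E545K list plays in the covered lengths was not tested beyond the summit and area thresholds above.

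Counted by peaks, 23 of 110 E545K peaks had no WT partner (20.9%, Wilson 95% interval 14.4 to 29.4%, and 12.6% over the list), while 8 of 99 WT peaks had no E545K partner (8.08%, 4.15 to 15.1%, and 20.3% over the list). For H1047R, 25 of 117 peaks had no WT partner (21.4%, 14.9 to 29.6%, and 17.9% over the list), and 4 of 99 WT peaks had no H1047R partner (4.04%, 1.58 to 9.93%, and 11.0% over the list). Among strong peaks, the upper 50% of a list by area, few were unpartnered. They were 3 of 65 in E545K against WT (4.62%, 1.58 to 12.7%, and 2.55% over the list) and 4 of 73 in H1047R against WT (5.48%, 2.15 to 13.3%, and 2.95% over the list). In reverse they were 1 of 63 in WT against E545K (1.59%, 0.281 to 8.46%, and 2.13% over the list) and 0 of 63 in WT against H1047R (up to 5.75%, and 1.40% over the list). Between the knock-ins, 14 of 110 E545K peaks had no H1047R partner (12.7%, and 9.14% over the list) and 21 of 117 H1047R peaks no E545K partner (17.9%, and 23.6% over the list). The strong ones were 2 in E545K without H1047R (3.08%, and 1.60% over the list) and 2 in H1047R without E545K (2.74%, and 2.87% over the list). Intervals of all strong-peak shares include the share over their list.

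CDH1 encodes E-cadherin, the main adhesion receptor of the epithelial adherens junction. The gene (ENSG00000039068.20) lies on hg38 chromosome 16 from 68737292 to 68835537 on the plus strand. Its promoter peak hardly differed between genotypes: it was 2277 bp wide in E545K, 2250 bp in H1047R and 2158 bp in WT, with the summit 48 bp upstream of the start in each list and a summit -log10 p of 8.79 in E545K, 8.99 in H1047R and 8.72 in WT. Larger differences lay in intron 2. There E545K had 3 peaks with no counterpart in either other list, at 68739839 to 68740625, 68746345 to 68747942 and 68749529 to 68749843. The middle one, 1598 bp with an area of 703 and a summit of 2.38, was strong by area. A shared intron 2 region starting at 68741088 was 2163 bp wide in E545K, 561 bp in H1047R and 513 bp in WT. Further into the intron, a region starting at 68760098 was 2409 bp wide in E545K, 1401 bp in H1047R and 1243 bp in WT. In total 20696 bp of the window lay under peaks in E545K, 15809 bp in H1047R and 13784 bp in WT, so coverage was 1.501 times as long as in WT in E545K and 1.15 times in H1047R. Ratios were placed among all genes with a WT peak in the window and at least 1000 bp in the longer list. Of these, 7.10% of 16361 had a ratio this high or higher for E545K over WT and 30.3% of 16479 for H1047R over WT. The peak of largest area in E545K and in WT lay in the same intron 2 region, at 68753824 to 68757677 in E545K and 68754002 to 68757666 in WT, with areas of 8480 in E545K and 6839 in WT. In H1047R that region was split into 2 peaks, the larger with an area of 5574 beside 5481 at its promoter.

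CDH3 encodes P-cadherin, and its window runs into that of CDH1, its neighbour downstream, so that the intron 2 peaks near the CDH1 start count for both genes. The gene (ENSG00000062038.15) spans 68636189 to 68727468 on chromosome 16, plus strand, with the canonical start at 68645310. It was the gene with the most regions outside the shared class, 20 of 33. The promoter peak was alike, at 3023 bp in E545K, 2982 bp in H1047R and 2750 bp in WT. In the gene body the knock-ins differed from each other. E545K alone had 5 peaks in intron 2, from 68650201 to 68662680, with summits between 2.06 and 2.77. H1047R alone had 4 peaks between exon 9 and exon 15, from 68681964 to 68696281, with summits between 2.27 and 2.96. The largest, over exons 10 and 11 at 68683745 to 68686405, was 2661 bp wide with an area of 1579 and a summit of 2.96. Beyond the last exon of the canonical transcript, a region starting at 68701565 was 634 bp wide in E545K, 3521 bp in H1047R and 861 bp in WT. A peak over exon 3, at 68676005 to 68676793 in H1047R, was present in both knock-ins and absent from WT. Covered length came to 26112 bp in E545K, 29207 bp in H1047R and 16981 bp in WT, or 1.54 times WT in E545K and 1.72 times WT in H1047R (log2 ratio 0.62 and 0.78). The H1047R ratio was the highest of the 8 genes with a ratio, and 3.05% of the 16479 genes reached it. The call of CDH3 for H1047R over WT held with gene bodies alone and at a threshold of 1.6. It was lost with 50 kb on each side and among peaks with a summit -log10 p of at least 3. H1047R and WT shared a peak 27 kb upstream, 423 bp wide at 68617784 to 68618206 in H1047R, that E545K lacked. Mean height over the covered bases, the area divided by length, was 1.58 in E545K, 1.64 in H1047R and 2.16 in WT. Over whole lists the mean height was 1.66 in E545K, 1.90 in H1047R and 1.94 in WT.

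**Figure D3:**
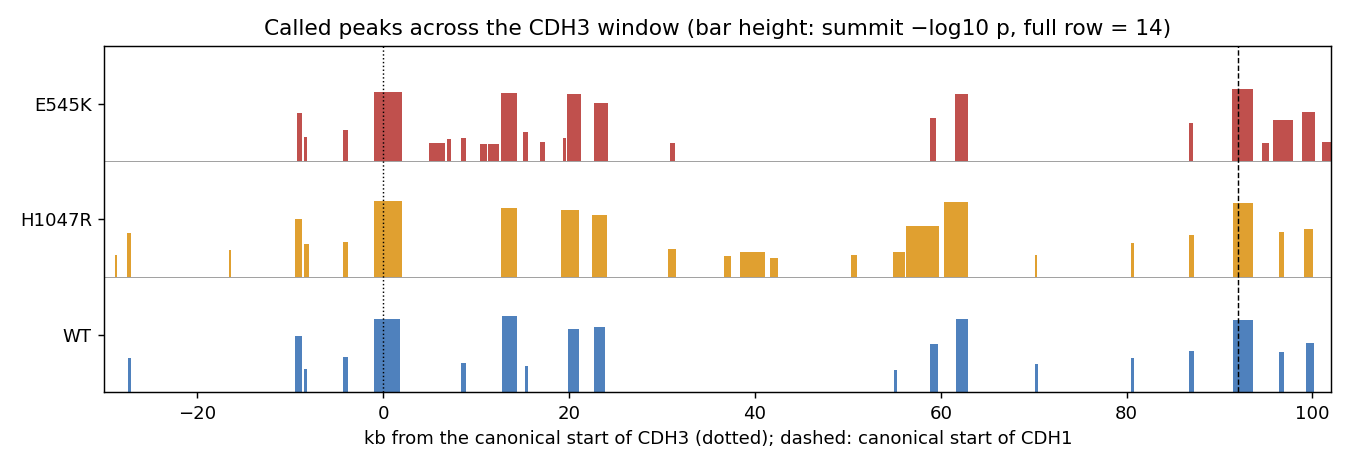
Called peaks across the CDH3 window in kb from its canonical start, with rows for E545K, H1047R and WT; bar width is the extent of the peak and bar height its summit -log10 p, with 14 filling a row, and the dashed line is the start of CDH1. Low bars follow the CDH3 start in the E545K row, where 5 peaks have no counterpart, and stand 37 to 51 kb downstream in the H1047R row, where 4 have none, while the tall promoter bars stand in all rows.

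CLDN1 encodes claudin-1, a barrier-forming claudin of the tight junction strands. Among the 8 genes with a promoter peak in every list, it had the highest ratios of covered promoter bases over WT. The gene (ENSG00000163347.6) lies on chromosome 3 from 190305707 to 190322446 on the minus strand. The promoter peak was 1037 bp wide in E545K, 951 bp in H1047R and 441 bp in WT, with a summit -log10 p of 6.27 in E545K, 5.44 in H1047R and 4.12 in WT. Within 1 kb of the start, 1042 bp lay under peaks in E545K, 951 bp in H1047R and 441 bp in WT. The ratios of 2.36 for E545K over WT and 2.16 for H1047R over WT were reached by 0.711% and 0.540% of genes. The genes counted had a WT promoter peak and at least 500 bp of the promoter covered in the longer list. With a rule chosen after the values were seen, a ratio of at least 1.5 and at least 500 bp in the longer list, CLDN1 was the 1 promoter of the 9 called, in each knock-in over WT. Of all genes, 2.74% were called for E545K over WT and 2.45% for H1047R over WT. Within its own list, the promoter peak had the largest area of the window in E545K (2699, ahead of 2452 at exon 4). In H1047R it came after the peak at exon 4, with 1755 against 2739. In WT it was one of the smallest, with 587 against 3107 at exon 4.

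The RefSeq promoter windows (250 bases before to 50 after the start, build GRCh38.p14) were found for 6 of the 9 genes, CLDN1, CLDN3, CLDN4, CLDN7, OCLN and TJP1. Words sought on both strands were the E-box CAGGTG, which SNAI and ZEB repressors of cadherin genes bind, the grainyhead core ACCGGT, the AP-1 word TGANTCA, the SP word GGGCGG, the TEAD word GGAATG and TATAAA. A match is a description of the letters and no sign of binding. The CLDN1 promoter at chr3:190322397-190322696, minus strand, is shown because it was the promoter called in both knock-ins over WT; capitals mark its 2 SP words at 88 and 40 bases before the start, a word that 45.0% of 33725 autosomal promoter windows hold.
CLDN1 promoter: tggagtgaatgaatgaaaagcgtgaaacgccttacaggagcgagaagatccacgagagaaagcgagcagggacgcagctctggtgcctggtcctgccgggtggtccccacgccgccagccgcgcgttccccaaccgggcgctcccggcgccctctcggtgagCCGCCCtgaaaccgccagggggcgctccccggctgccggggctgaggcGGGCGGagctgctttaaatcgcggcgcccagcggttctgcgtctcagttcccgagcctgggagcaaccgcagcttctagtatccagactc

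Intron 1 of CLDN1 was also wider in the knock-ins. A peak 2 kb into the gene was 2059 bp wide in E545K, 932 bp in H1047R and 346 bp in WT. Next to it, at 190318332 to 190319177, E545K had an 846 bp strong peak (area 652, summit 3.17) and H1047R a 424 bp peak, with none in WT. Downstream of the gene, at 190288870 to 190289431, H1047R had a 562 bp strong peak (area 643, summit 4.15) and E545K a 237 bp peak, again with none in WT. Other flanking peaks did not follow this pattern. The one 14 kb upstream was 647 bp wide in E545K, 850 bp in H1047R and 932 bp in WT, and the one at exon 4 was 1468 bp in E545K, 1176 bp in H1047R and 1428 bp in WT. The whole window came to 9337 bp in E545K, 8242 bp in H1047R and 5713 bp in WT, or 1.63 times WT in E545K and 1.44 times WT in H1047R. The greater length was thus spread over the promoter, intron 1 and the downstream sites. The 300 bases at the summits of the peaks absent from WT are printed on the plus strand because both knock-ins had a peak at these sites and WT had none; the intron 1 window is chr3:190318742-190319041 and the downstream window chr3:190288885-190289184. Capitals mark a TATA word at base 209 of the intron 1 window, which 10.2% of strong E545K summit windows hold, and an AP-1 word at base 137 of the downstream window, which 39.3% of strong H1047R summit windows hold.
CLDN1 intron 1 summit, E545K peak: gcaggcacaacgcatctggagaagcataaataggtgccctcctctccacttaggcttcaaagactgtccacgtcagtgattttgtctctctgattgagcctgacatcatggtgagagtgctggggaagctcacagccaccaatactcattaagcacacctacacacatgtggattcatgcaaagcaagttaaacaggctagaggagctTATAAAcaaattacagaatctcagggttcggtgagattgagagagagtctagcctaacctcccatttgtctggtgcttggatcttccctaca
CLDN1 downstream summit, H1047R peak: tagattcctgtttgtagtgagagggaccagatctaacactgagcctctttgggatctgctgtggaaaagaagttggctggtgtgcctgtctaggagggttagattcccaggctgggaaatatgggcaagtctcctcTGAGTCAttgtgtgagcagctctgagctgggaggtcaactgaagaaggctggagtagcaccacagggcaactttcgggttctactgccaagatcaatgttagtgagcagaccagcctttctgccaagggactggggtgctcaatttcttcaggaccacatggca

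**Figure D4:**
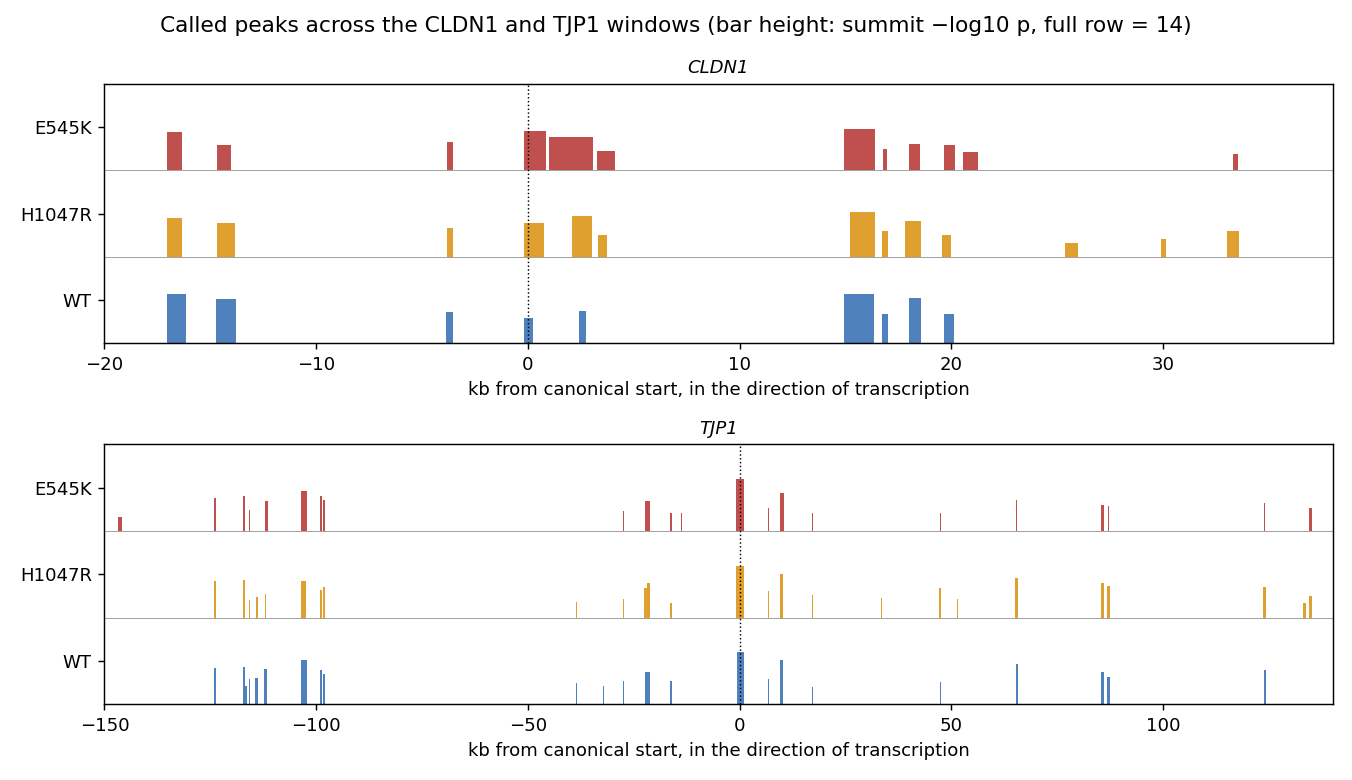
Called peaks across the CLDN1 window (above) and the TJP1 window (below) in kb from the canonical start in the direction of transcription, with rows for E545K, H1047R and WT; bar width is the extent of a peak and bar height its summit -log10 p, with 14 filling a row. At the CLDN1 start and in the first 3 kb of the gene the E545K and H1047R bars are wider than those of WT, the intron 1 peak measuring 2059, 932 and 346 bp in that order, while bars further from the start do not share this order. In the TJP1 window 19 of 30 regions have a bar in every row.

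CLDN3 and CLDN4 are neighbours on chromosome 7 and both encode claudins known as receptors of the Clostridium perfringens enterotoxin. CLDN3 (ENSG00000165215.6, 73768997 to 73770270, minus strand) had the fewest peaks. It had 1 region in its window, a 373 bp peak over its start at 73770153 to 73770525 in H1047R with an area of 316 and a summit of 3.11, and neither E545K nor WT had any peak there. Such a promoter peak in H1047R and not in WT was found in 1.78% of all genes, and in H1047R and not in E545K in 1.81%. The peak was among the smaller of its list, whose median area was 639, and it was lost among peaks with an area of at least 400. The CLDN3 promoter at chr7:73770221-73770520, minus strand, is shown as the one promoter without a peak in E545K and WT; capitals mark 6 SP words, of which those at bases 13 and 17 touch, and an E-box 36 bases into the transcript, a word found in 20.7% of promoter windows.
CLDN3 promoter: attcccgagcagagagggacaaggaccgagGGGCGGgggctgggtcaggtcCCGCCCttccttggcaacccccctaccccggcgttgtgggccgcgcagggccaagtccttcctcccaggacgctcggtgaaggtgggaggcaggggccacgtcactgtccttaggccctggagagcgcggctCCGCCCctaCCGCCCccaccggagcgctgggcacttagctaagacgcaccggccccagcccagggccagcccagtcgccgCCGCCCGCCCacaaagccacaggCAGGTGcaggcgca

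CLDN4 (ENSG00000189143.10, 73799542 to 73832690, plus strand, canonical start 73830996) was open in each list, and its promoter peak was wider in the knock-ins. It was 5072 bp wide in E545K, 3891 bp in H1047R and 2068 bp in WT, where a second peak of 686 bp lay beyond it. The summit lay 5 bp upstream of the start in E545K and 1336 bp downstream in both H1047R and WT, within exon 1. Within 1 kb of the start, 1875 bp were covered in E545K, 1650 bp in H1047R and 1355 bp in WT, or 1.38 and 1.22 times WT. Of the 12 regions in the window 10 were in all 3 lists, and 7 of these 10 had more bases under peaks in both knock-ins than in WT. Upstream at 73827429 to 73828571, for example, 1143 bp lay under peaks in E545K, 1019 bp in H1047R and 780 bp in WT. The window came to 13451 bp in E545K, 11708 bp in H1047R and 8896 bp in WT, or 1.51 times WT in E545K and 1.32 times WT in H1047R. Mean height over the covered bases was 2.30 in E545K, 2.07 in H1047R and 2.02 in WT. METTL27 also starts in this window. The CLDN4 promoter at chr7:73830746-73831045, plus strand, is shown because the E545K summit falls in it; capitals mark AP-1 words 242 and 161 bases before the start and an SP word 47 before it. AP-1 words are in 7.67% of all promoter windows.
CLDN4 promoter: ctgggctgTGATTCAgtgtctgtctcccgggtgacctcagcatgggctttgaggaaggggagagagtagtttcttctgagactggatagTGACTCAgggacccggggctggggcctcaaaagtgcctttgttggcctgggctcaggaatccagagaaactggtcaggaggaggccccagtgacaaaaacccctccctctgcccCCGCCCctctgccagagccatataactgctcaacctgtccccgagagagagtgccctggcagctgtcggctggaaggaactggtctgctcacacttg

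CLDN7 encodes a claudin found along the basolateral membrane as well as at the tight junction, and it lies in a gene-dense stretch of chromosome 17 (ENSG00000181885.18, 7259903 to 7263983, minus strand, canonical start 7262478). In E545K a single peak of 5727 bp covered all 4 exons, with its summit 148 bp upstream of the start. H1047R had a 4016 bp peak there with the summit 154 bp upstream, and WT had 2 peaks of 1885 and 1544 bp. The region they formed with the peak next to them held 5727 bp under peaks in E545K, 5259 bp in H1047R and 3958 bp in WT. A strong E545K peak with no counterpart in the other lists, 1890 bp at 7255422 to 7257311 with an area of 745 and a summit of 2.57, lay over exon 5 of the neighbour ELP5. The window came to 15616 bp in E545K, 13470 bp in H1047R and 10391 bp in WT, or 1.503 times WT in E545K and 1.30 times WT in H1047R. Part of the difference was at other genes: the region over the starts of CTDNEP1 and ELP5 held 4330 bp in E545K, 3579 bp in H1047R and 2277 bp in WT. Starts of GABARAP and SLC2A4 lie in the window too. The CLDN7 promoter at chr17:7262429-7262728, minus strand, is shown because it held the most E-boxes of the 6 promoters, 5, which capitals mark along with 2 SP words.
CLDN7 promoter: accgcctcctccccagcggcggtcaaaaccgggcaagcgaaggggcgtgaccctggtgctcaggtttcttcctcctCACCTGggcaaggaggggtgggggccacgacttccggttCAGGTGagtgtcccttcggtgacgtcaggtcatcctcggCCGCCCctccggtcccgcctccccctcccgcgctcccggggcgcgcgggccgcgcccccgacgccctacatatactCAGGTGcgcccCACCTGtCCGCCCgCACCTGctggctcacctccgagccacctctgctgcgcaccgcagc

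**Figure D5:**
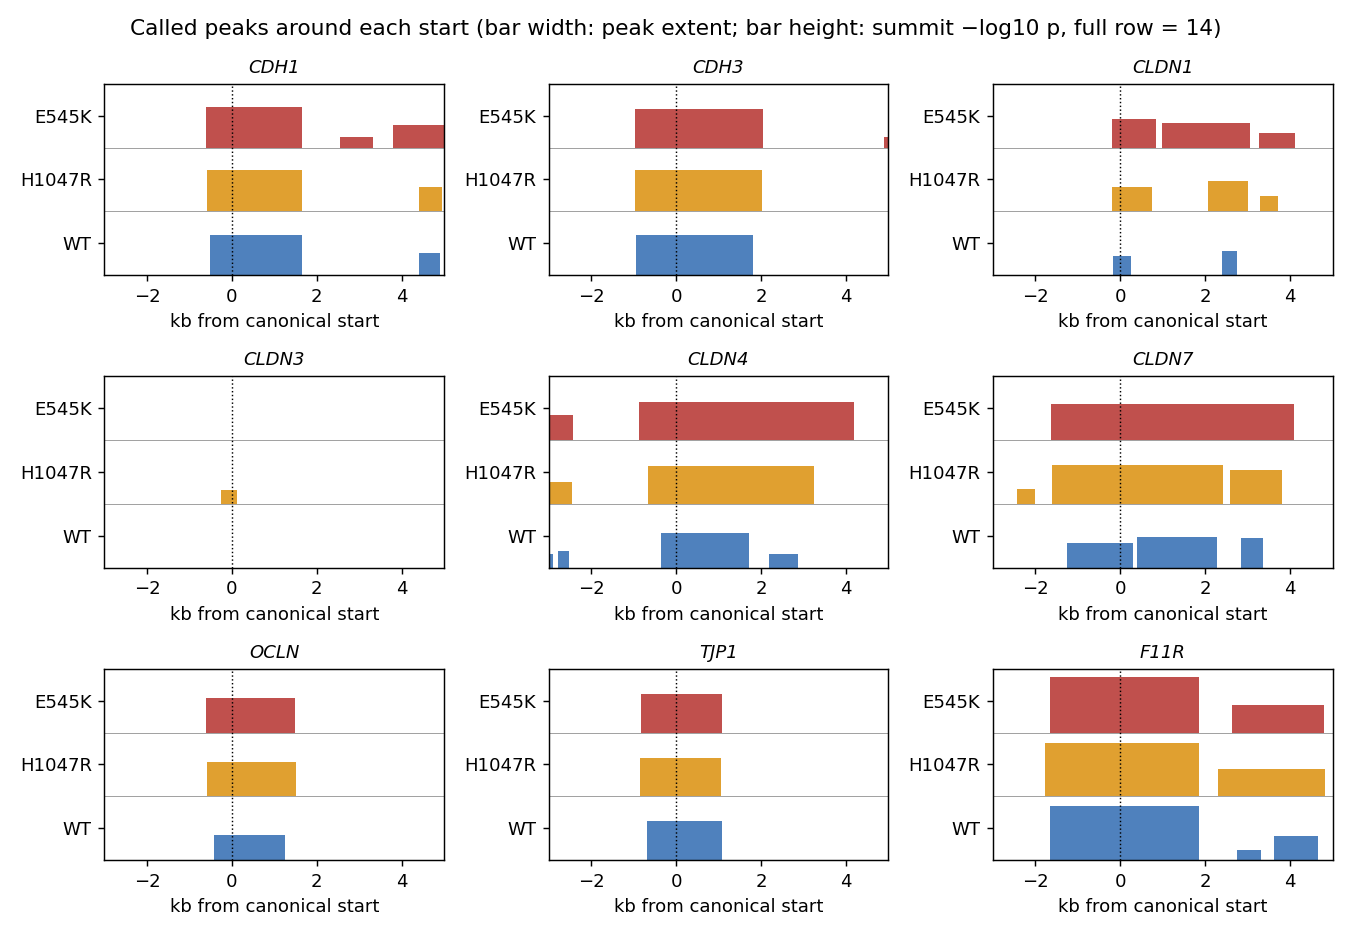
Called peaks from 3 kb upstream to 5 kb downstream of the canonical start of each gene, in the direction of transcription, with rows for E545K, H1047R and WT; bar width is the extent of a peak and bar height its summit -log10 p, with 14 filling a row. The bars over the start of CDH1, CDH3, TJP1 and F11R have similar extents in the 3 rows, those of CLDN1, CLDN4 and CLDN7 are wider in the knock-in rows, and CLDN3 has a bar in H1047R only. Beyond the start, CDH1 has wider and extra bars in E545K, and F11R has 1 bar in each knock-in where WT has 2.

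OCLN encodes occludin, a membrane protein that lines the tight junction strands with the claudins. The gene (ENSG00000197822.12) lies on chromosome 5 from 69492292 to 69558104 on the plus strand, with the canonical start at 69492790. Its promoter peak was 2089 bp wide in E545K, 2113 bp in H1047R and 1692 bp in WT, and its summit -log10 p was 7.52 in E545K, 7.50 in H1047R and 5.59 in WT. This summit lay 279 bp upstream of the start in both knock-ins and 39 bp upstream in WT. Intron 1 held the widest difference: a region starting at 69501637 had 1803 bp under peaks in E545K, 1465 bp in H1047R and 393 bp in WT. Its right part was a separate strong peak in H1047R, 1060 bp at 69502381 to 69503440 with an area of 964 and a summit of 3.39, and had no WT peak. In intron 4, the sites at 69516454 to 69516673 and 69527992 to 69528380 were open in E545K and H1047R without a WT peak. Of its 8 regions, none was in 1 list only. The window came to 7511 bp in E545K, 7246 bp in H1047R and 4490 bp in WT, or 1.67 times WT in E545K and 1.61 times WT in H1047R, which 4.61% and 4.17% of these genes reached. OCLN was called for E545K over WT under each of the 7 alternative rules tried for covered length.

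The 3′ part of the OCLN window cannot be read in full. From 69533890 to 69578104, 41.8% of the window, the sequence has a copy elsewhere on chromosome 5 at 98% identity or more. The pseudogene OCLNP1 lies on the same chromosome (71074225 to 71093193), but the position of the copy was not recorded. Of the 8 regions 1 touches the copied stretch, at the start of the neighbour GTF2H2C, and its values are uncertain. The other 7 regions lie outside, and the windows of the other 8 genes held no such copy on their own chromosome. Copies on other chromosomes were not sought. The OCLN promoter at chr5:69492540-69492839, plus strand, is shown because the position of the promoter summit differed between the knock-ins and WT. It holds the WT summit, while the summit of both knock-ins, 279 bp upstream of the start, lies outside it. The intron 1 summit window at chr5:69502819-69503118 is shown because that region differed most in covered bases. Capitals mark E-boxes 133 bases before and 35 bases after the start in the promoter, and an AP-1 word at base 162 of the intron 1 window.
OCLN promoter: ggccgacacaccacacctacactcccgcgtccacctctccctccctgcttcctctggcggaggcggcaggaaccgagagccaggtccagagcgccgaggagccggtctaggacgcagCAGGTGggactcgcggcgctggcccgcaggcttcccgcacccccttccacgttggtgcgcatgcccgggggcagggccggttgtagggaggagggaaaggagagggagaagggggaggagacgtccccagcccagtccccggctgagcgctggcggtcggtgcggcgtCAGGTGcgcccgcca
OCLN intron 1 summit, H1047R peak: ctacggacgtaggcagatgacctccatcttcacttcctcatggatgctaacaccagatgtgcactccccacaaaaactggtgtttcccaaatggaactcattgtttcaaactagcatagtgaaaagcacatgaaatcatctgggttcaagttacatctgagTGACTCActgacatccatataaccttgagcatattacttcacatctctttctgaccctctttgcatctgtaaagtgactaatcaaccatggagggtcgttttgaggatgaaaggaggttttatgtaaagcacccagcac

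TJP1 encodes the scaffold zonula occludens 1, which links claudins and occludin to actin, and its window did not follow the others. The gene (ENSG00000104067.17) spans 29699367 to 29968915 on chromosome 15, minus strand, with the canonical start at 29822468. Covered length was 13495 bp in E545K, 14876 bp in H1047R and 14113 bp in WT, or 0.956 times WT in E545K and 1.05 times WT in H1047R. The promoter peak was 1912 bp wide in E545K, 1918 bp in H1047R and 1763 bp in WT, and 19 of 30 regions were in all 3 lists. The strong peak that WT had and E545K lacked, the only one at the 9 genes, lay in the gene body 114 kb upstream of the canonical start at 29936127 to 29936924. It was 798 bp wide in WT with an area of 1002 and a summit of 4.24, and H1047R had a 410 bp peak there. Its summit window, chr15:29936450-29936749 on the plus strand, is shown for that reason; capitals mark an E-box at base 154, a word that 25.4% of strong WT summit windows hold.
TJP1 summit, WT peak: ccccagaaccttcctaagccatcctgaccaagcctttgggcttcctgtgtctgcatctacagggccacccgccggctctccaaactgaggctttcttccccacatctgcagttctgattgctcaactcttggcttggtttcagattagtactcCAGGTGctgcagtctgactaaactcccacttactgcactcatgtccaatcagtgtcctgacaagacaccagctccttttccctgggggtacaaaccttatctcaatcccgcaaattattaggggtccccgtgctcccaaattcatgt

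F11R encodes junctional adhesion molecule A, an immunoglobulin-type receptor at the tight junction. The gene (ENSG00000158769.18) lies on chromosome 1 from 160995211 to 161021343 on the minus strand. It had the highest summits of the 9 genes at its promoter, with a -log10 p of 12.1 in E545K, 11.8 in H1047R and 11.9 in WT, over 3523 bp in E545K, 3641 bp in H1047R and 3519 bp in WT. The promoter thus looked the same in each list. Intron 1 differed, since a region at 161016320 to 161018856 held 2174 bp under 1 peak in E545K, 2537 bp under 1 peak in H1047R and 1619 bp under 2 peaks in WT. At 161008929 to 161009372 in intron 1 and at 160991882 to 160992746 past the 3′ end, both knock-ins had a peak and WT had none. Covered length was 14319 bp in E545K, 14907 bp in H1047R and 10489 bp in WT, or 1.37 times WT in E545K and 1.42 times WT in H1047R, which 10.7% and 8.34% of these genes reached. Some of its regions lie over the read-through gene ENSG00000270149 and over TSTD1.

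Other genes of the same junctions, 48 chosen by role, were described in the same way. Promoter peaks stood in all 3 lists for 32 (65.5% of all genes), in no list for 12 (5727 of the 19111 genes) and in some lists only for 4 (870 of the 19111). Covered length was at least 1.5 times longer in E545K than in WT for 3 of 48, against 6.23% of all genes. It was longer in H1047R than in WT for 3 of 48 (5.24% of all genes) and than in E545K for 4 (7.23%). WT was longer than E545K for 2 (4.59%) and than H1047R for 0 (2.35%), and E545K longer than H1047R for 0 (5.70%). The 2 counts over WT were thus near the shares of all genes. The median ratio was 1.10 for E545K over WT and 1.08 for H1047R over WT. It was taken over the 45 of these genes with a WT peak and at least 1000 bp in the longer list. The share of regions in all 3 lists was 65.7% (Wilson 95% interval 61.8 to 69.5%). Promoter peaks in some lists only were found at TJP3, a relative of TJP1 (E545K and H1047R), at ILDR1, a protein of tricellular junctions (H1047R), at CLDN20 (H1047R and WT) and at CDH5, the endothelial cadherin (WT). NECTIN1, an adhesion protein of adherens junctions, had 2 strong H1047R peaks without a WT partner, and the scaffold gene MAGI1 had 2 strong E545K peaks without one. By the shape of covered length over the 3 lists, the genes nearest to CDH3 were ILDR1 with 4061 bp in E545K, 4802 bp in H1047R and 2911 bp in WT, NECTIN1 with 19956, 19962 and 13406 bp in that order, and CLDN14 with 2134, 2148 and 1560 bp. That likeness rests on 3 values per gene. Among 8 regulators of cadherin transcription, among them SNAI2, ZEB1 and GRHL2, 7 had a promoter peak in all 3 lists (65.5% of all genes). A strong unpartnered peak was found at 0 of the 8, where 524 to 1469 of the 19111 genes had one, depending on the direction. The rule for covered length was met by 0 of the 8 in any direction (2.35 to 7.23% of all genes). With 8 genes, counts of 0 cannot be set apart from these shares.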

How the data were processed

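ATAC-seq peak lists of MCF-10A cells were used, 1 list for each of the 3 genotypes, called on both samples of a genotype together; samples were grouped by the genotype in the labels. Per the submitters' processing notes, Trim Galore 0.4.0, cutadapt, FastQC, SAMtools and Genrich 0.6.1 were used with build hg38. No aligner is named there or in the labels. The authors' signal for a peak, as deposited, is its area under the curve of -log10 p, and a second deposited value is the -log10 p at the summit. The capped score and the empty column of adjusted values were not used. The lists cover the 22 autosomes.

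The genes and all lists were chosen with earlier results of these data known. Peaks overlapping GENCODE release 44 gene bodies with 20 kb on each side were counted. Depth is unknown, and intervals cover counting error only. Overlap of 1 bp made a partner, peaks counted as strong in the top 50% of their list by area, and promoters were the canonical start with 1 kb on each side. Covered length was called at a ratio of at least 1.5 with at least 1000 bp in the longer list. Since 1 pooled list per genotype leaves no replicate values, no test was made, and each count stands beside its share over all genes or the whole list. Named genes were the 9 genes, other junction genes whose promoter had a peak in 1 or 2 lists or with at least 2 strong unpartnered peaks in 1 direction, and the 3 nearest to the gene with the largest covered ratio. Alternatives covered the flank, assignment to the nearest start, overlap, strength, area, list length, merging and promoter width; those on covered length and on summit height were added after seeing the data.

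Python 3.11.15 was used with numpy 2.4.6, pandas 2.3.3, scipy 1.17.1 (Wilson intervals), pysam 0.24.0, matplotlib 3.10.9, bedtools 2.31.1 and, for copies of at least 1000 bp at 98% identity on the same chromosome, minimap2 2.31. Tested on simulated data made from the WT list, 2000 of 2000 removed peaks were found, 0 of 96910 kept peaks were called, and 158 of 162 widened genes were called. Overlaps differed from bedtools in 0 of 33 comparisons.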

Additional observations from a re-analysis of the deposited data

How the results depend on the processing

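No paired analysis was possible because the lists pool both samples of a genotype, and for the same reason no replicate could be left out. Of 94 counts recomputed under alternatives, 56 stayed within 1.5 times the reported count and 38 did not; the cause was not tested. The 8 promoters with a peak in all 3 lists and the regions shared by all 3 stayed within that range under every alternative run. The covered-length calls for E545K over WT, 6 as reported, were 3 at an area of at least 400 (5.52% of all genes) and 1 with 50 kb flanks (5.6%). They were 3 without flanks (6.11%), 2 at a ratio of 1.6 (4.77%) and 2 at a summit -log10 p of at least 3 (3.3%). Calls for H1047R over WT, 2 as reported, were 6 at a ratio of 1.25 (15.3% of all genes) and 1, OCLN, at the summit threshold (5.35%). With 50 kb flanks they were 2 (4.59%), with CDH1 and OCLN called and CDH3 lost. Calls for E545K over H1047R, 0 as reported, were 1 without flanks (5.37% of all genes) and 1 at a ratio of 1.25 (10.5%). The median ratio for E545K over H1047R, 1.08, turned to 0.985 with 50 kb flanks and 0.973 at the summit threshold, so its direction is not settled.

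Unpartnered peaks, strong or not, were 23 for E545K without WT, 25 for H1047R without WT, 8 for WT without E545K, 4 for WT without H1047R, 14 for E545K without H1047R and 21 for H1047R without E545K. Strong ones, when a partner had to cover 50% of the peak, were 9 for E545K without WT, 11 for H1047R without WT, 3 for WT without E545K, 5 for E545K without H1047R and 5 for H1047R without E545K. With strength taken from the summit, they were 0 for E545K without WT, 1 for H1047R without WT, 0 for WT without E545K, 0 for E545K without H1047R and 1 for H1047R without E545K. At an area of at least 400, they were 7 for H1047R without WT, 3 for WT without E545K, 2 for WT without H1047R and 6 for H1047R without E545K. At a summit of at least 3, they were 3 for WT without E545K, 1 for WT without H1047R, 0 for E545K without H1047R and 4 for H1047R without E545K. Without flanks, 1 remained for E545K without H1047R and 1 for H1047R without E545K. With 50 kb flanks 2 were found for WT without E545K, with lists of equal length 1 for WT without H1047R, and by nearest start 1 for E545K without H1047R. Strong unpartnered peaks were few, and the depth behind the lists is unknown.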
